A study of Mus musculus with 16 samples.

Results

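The genotype comparison described here is between IkL/L and WT monocyte and dendritic progenitors (MDPs), each measured with vehicle and with a γ-secretase inhibitor. It uses 8 of the 16 arrays of the series, all those whose label names MDPs, with 4 IkL/L arrays set against 4 WT arrays and the genotype difference averaged over both treatments. The groups were WT MDPs with DMSO, WT MDPs with GSI, IkL/L MDPs with DMSO and IkL/L MDPs with GSI, with 2 arrays in each. IkL/L mice are homozygous for a hypomorphic allele of Ikzf1, the gene encoding the zinc finger transcription factor Ikaros, and the strain and age are not given in the labels. Sorted bone marrow MDPs carrying CD45.2 were placed in culture for 24 h with Flt3L-conditioned medium and an added population of whole WT bone marrow cells carrying CD45.1, and CD45.2+ cells were then sorted again for RNA. GSI is Compound E, given at 5 µM, and DMSO is its vehicle. The name MDP therefore refers to the cells put into culture, and the cells recovered after 24 h may have moved on from that stage. The remaining 8 arrays are of WT and IkL/L common dendritic progenitors (CDPs) handled in the same way, and they are used below only where a gene's behavior in MDPs is set against that in CDPs.

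MDPs give rise to monocytes and, through CDPs, to dendritic cells (DCs). Ikaros can repress or activate its targets and is required at several steps of blood cell development, DC development among them. Notch is a receptor whose intracellular part acts in the nucleus once γ-secretase has cut it loose from the membrane, a step that GSI prevents. MHC class II molecules, which DCs use to present peptides to CD4+ T cells, are α and β chain pairs assembled with the invariant chain, and their genes share promoter elements read by a common set of regulators.

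Values are log2 RMA signals, which compare arrays for 1 gene but not genes with each other. Array medians ranged from 4.52 to 4.65, and replicate MDP arrays correlated with r from 0.987 to 0.996. The sorting markers were present in the MDP arrays, with Csf1r (encoding CD115) at 9.62 to 10.41, Kit (CD117) at 5.94 to 8.05 and Flt3 (CD135) at 6.36 to 7.76, and none of these 3 passed the test between genotypes. Labeling started from 0.69 to 20 ng of RNA, an amount not given for each array. Transcripts of the Y chromosome differed between arrays in a way that follows neither genotype nor treatment: Eif2s3y was high in 2 WT MDP arrays (replicate 1 of each treatment, 6.87 and 6.63) and low in the other two (3.52 and 3.27), and it was high in 3 IkL/L MDP arrays (5.89 to 7.04) and low in 1 (GSI replicate 2, 3.33). The X-linked transcript Xist was at 8.76 to 9.29 in WT and at 7.80 to 8.70 in IkL/L MDP arrays, which did not overlap. It was also high in arrays with high Eif2s3y, such as replicate 1 of WT MDPs with DMSO (9.24). Of the 4 sex-linked genes measured, Xist among them, 0 were called between genotypes. The part of sex in the results was not tested. The sexes of the mice are not given in the labels, and neither the labels nor the methods say whether arrays with the same number share a mouse, so p-values measure the spread between these arrays.

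Ikzf1 itself was examined first. Its signal was 8.97 and 9.09 in WT MDPs with DMSO, 9.20 and 9.03 in WT MDPs with GSI, 8.55 and 8.85 in IkL/L MDPs with DMSO, and 8.52 and 8.36 in IkL/L MDPs with GSI. All 4 IkL/L arrays lay below all 4 WT arrays. The averaged log2 difference was -0.50 (SE 0.10), which did not pass the limma test at an adjusted p of 0.05 (adjusted p = 0.0545). The position of the probes relative to the altered allele is not given, so this signal is not a measure of Ikaros protein. The relatives of Ikaros, Ikzf2 to Ikzf5, had differences from -0.06 to 0.53, and 0 of the 5 family members passed the test.

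The genotype difference in MDPs was mostly a gain of transcripts. Of 19938 genes tested, 107 rose in IkL/L MDPs (0.537%) and 12 fell (0.0602%) at an adjusted p below 0.05 in the limma fit, with 999 higher and 755 lower at an unadjusted p below 0.05. Of the 107 risen genes, 55 changed at least 2-fold and 24 at least 4-fold, whereas 2 of the 12 fallen genes reached 2-fold. The arrays of the genotypes did not overlap for 103 of the 107 and 10 of the 12, against 3.77% of all genes with all IkL/L MDP arrays higher and 2.34% with all of them lower. Among the 15 largest rises were MHC class II genes (H2-Aa, H2-Ab1, H2-Eb1, Cd74), neutrophil granule genes (Camp, Ltf, Fcnb, Wfdc21, Ngp) and Ppic, Mrc1, Actn1, Clec4n, Cd9 and Klrd1, with H2-Aa and H2-Ab1 first. The plot of signals by array shows 8 of the genes described below.

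**Figure D1:**
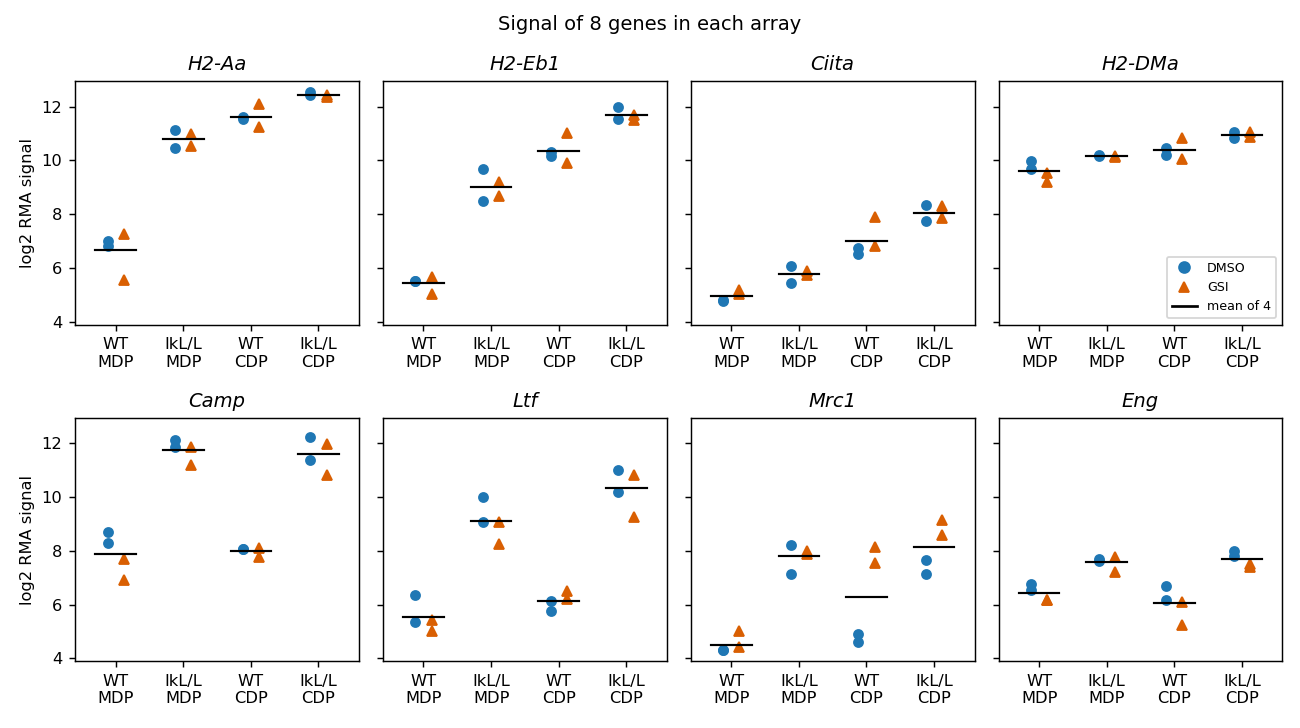
Signal (log2 RMA) of 8 genes in each array of WT and IkL/L MDPs and CDPs, with DMSO as circles, GSI as triangles and the mean of 4 arrays as a line. In H2-Aa the 4 IkL/L MDP arrays (10.45 to 11.14) lie above the 4 WT MDP arrays (5.53 to 7.26), while Ciita and H2-DMa show smaller differences that did not pass the test.

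Genes encoding classical MHC class II chains and the invariant chain were among those with the largest differences. H2-Aa, which encodes the α chain of I-A, had a signal of 6.83 and 6.99 in WT MDPs with DMSO, 5.53 and 7.26 in WT MDPs with GSI, 10.45 and 11.14 in IkL/L MDPs with DMSO, and 10.54 and 10.99 in IkL/L MDPs with GSI. Every IkL/L array was thus more than 3 log2 units above every WT array. The averaged difference was 4.13 (SE 0.33), or 17.5-fold (limma adjusted p = 3.7e-04). H2-Ab1, the β chain of the same molecule, rose from 6.75, 6.79, 5.55 and 6.90 in WT MDPs to 10.17, 10.91, 10.24 and 10.61 in IkL/L MDPs, a log2 difference of 3.98 (SE 0.26, adjusted p = 2.0e-04). Replicate 1 of WT MDPs with GSI was the lowest array for both genes. H2-Eb1, the β chain of I-E, was at 5.51, 5.53, 5.04 and 5.65 in WT MDPs and at 8.50, 9.67, 8.67 and 9.20 in IkL/L MDPs, a log2 difference of 3.58 (SE 0.30, adjusted p = 4.9e-04). Cd74, the invariant chain that guides class II molecules to the peptide loading compartment, was at 6.70, 6.95, 6.37 and 7.73 in WT MDPs and at 9.93, 10.95, 10.46 and 10.51 in IkL/L MDPs, a difference of 3.52 (SE 0.30, adjusted p = 6.3e-04). These 4 genes were also called when any single array was left out.

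The rest of the class II list moved less. Of 15 members measured, 4 rose, 0 fell and 13 had a higher mean in IkL/L MDPs, with a median log2 difference of 0.55, against -0.01 over all genes. Ciita, the coactivator that drives class II transcription, was at 4.81, 4.78, 5.20 and 5.03 in WT MDPs and at 5.46, 6.05, 5.88 and 5.75 in IkL/L MDPs. These values did not overlap, but the difference of 0.83 (SE 0.24) did not pass the test (adjusted p = 0.25). The subunits of the RFX complex, which binds the class II promoters, had differences of -0.03 (Rfx5), 0.18 (Rfxap) and 0.10 (Rfxank). H2-DMa, a subunit of the peptide exchange factor H2-M, had a difference of 0.58 (adjusted p = 0.22), and the subunits of its inhibitor H2-O had 0.56 (H2-Oa) and 0.06 (H2-Ob). Processing enzymes did not pass either, with differences of 0.29 for Ctss (cathepsin S, which trims the invariant chain), 0.19 for Ifi30 and 0.55 for Lgmn. H2-Eb2, a neighbor and close relative of H2-Eb1, stayed between 3.64 and 3.91 in all 8 MDP arrays with a difference of -0.001 (SE 0.21). H2-DMb1, H2-DMb2 and March1 had no probe set of their own.

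The promoters of H2-Aa, H2-Eb1 and H2-Eb2 are shown because the first pair had some of the largest rises and the last, with the same elements, had none. The sequences run 5′ to 3′ on the strand of the gene, from 250 bases before to 50 bases after the RefSeq start (GRCm38.p6). Capitals mark CTGATTGG, the Y box bound by NF-Y, and the nearest GCAAC within 60 bases before it, the core of the X box bound by RFX. Any other GCAAC is left in lower case. The H2-Aa window is chr17:34287774-34288073 on the minus strand, the H2-Eb1 window chr17:34305617-34305916 on the plus strand, and the H2-Eb2 window chr17:34325425-34325724 on the plus strand.
H2-Aa: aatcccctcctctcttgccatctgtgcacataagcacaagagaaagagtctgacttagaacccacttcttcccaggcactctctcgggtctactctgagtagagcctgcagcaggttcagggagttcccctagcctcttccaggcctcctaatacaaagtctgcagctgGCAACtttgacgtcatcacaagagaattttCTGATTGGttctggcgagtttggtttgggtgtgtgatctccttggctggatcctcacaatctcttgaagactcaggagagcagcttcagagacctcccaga
H2-Eb1: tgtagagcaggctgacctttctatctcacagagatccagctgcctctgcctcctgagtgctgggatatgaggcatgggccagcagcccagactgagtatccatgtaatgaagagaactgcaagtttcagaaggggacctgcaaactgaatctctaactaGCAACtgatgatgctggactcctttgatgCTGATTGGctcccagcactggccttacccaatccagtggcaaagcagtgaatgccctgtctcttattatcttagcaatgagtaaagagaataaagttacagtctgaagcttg
H2-Eb2: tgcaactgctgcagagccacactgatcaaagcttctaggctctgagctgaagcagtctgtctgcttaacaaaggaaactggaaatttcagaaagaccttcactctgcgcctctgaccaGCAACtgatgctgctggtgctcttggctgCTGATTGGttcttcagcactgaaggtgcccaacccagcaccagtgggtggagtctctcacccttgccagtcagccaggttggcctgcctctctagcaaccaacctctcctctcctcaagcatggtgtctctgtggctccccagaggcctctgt

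The cores lay 25 bases apart in H2-Aa and 24 apart in H2-Eb1 and in H2-Eb2. CTGATTGG, searched on both strands, was present in 4.7% of the windows of 27025 genes, and GCAAC within 60 bases before it on the same strand in 0.248%. Of the 15 class II genes measured, 11 had a window in the RefSeq table and 4 of these held the pair, the remaining one being H2-Oa. The same windows were searched on both strands for TGGGAA, a core of the sites that Ikaros is known to bind. It was present in 35 of the 82 risen genes that had a window (42.7%), in 27.1% of all tested genes with a window and in 28.3% of all genes of the table. These letter matches are a description and were not tested.

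Neutrophil granule genes formed the other group among the largest rises. The list of that name also holds other neutrophil genes, such as the receptor gene Csf3r and the late neutrophil gene S100a9. Its counts are therefore not of granule proteins alone. Of 21 members measured, 8 rose (Camp, Ltf, Fcnb, Wfdc21, Ngp, Pglyrp1, S100a9 and Anxa1) and 0 fell, 19 had a higher mean in IkL/L MDPs, and the IkL/L arrays were all higher for 16, where 0.537% of all genes rose and 3.77% had all IkL/L arrays higher. With the genotype, stage and replicate number as a random block of estimated correlation (0.292), 4 of the 8 kept the call, and Wfdc21 (limma adjusted p = 0.069), Pglyrp1, S100a9 and Anxa1 (each adjusted p = 0.061) lost it. The median log2 difference was 1.11. Camp, which encodes the antimicrobial peptide cathelicidin, was at 8.72 and 8.28 in WT MDPs with DMSO and 7.69 and 6.93 with GSI, and at 12.12 and 11.86 in IkL/L MDPs with DMSO and 11.85 and 11.21 with GSI. The lowest IkL/L array was above the highest WT array by more than 2 log2 units, and the difference was 3.86 (SE 0.29, 14.5-fold, limma adjusted p = 3.4e-04). Ltf, which encodes the iron-binding protein lactotransferrin, was at 5.35, 6.36, 5.03 and 5.43 in WT MDPs and at 9.09, 10.00, 9.08 and 8.24 in IkL/L MDPs, a difference of 3.56 (SE 0.38, adjusted p = 0.0022). Fcnb, which encodes the lectin ficolin B, rose by 2.84 (SE 0.35, adjusted p = 0.0063) and Ngp, a granule protein related to cathelicidin, by 2.49 (SE 0.33, adjusted p = 0.0094).

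The rises lay in part of the granulocyte program. Among the genes of specific granules, which form at the later promyelocyte and myelocyte stages, 4 of 7 rose with a median difference of 2.38. Lcn2, another gene of that subset, had a difference of 1.56 (adjusted p = 0.20) and Mmp8 one of 0.22. Genes of the azurophil granules, which form first, did not pass: Mpo (-0.15), Elane (0.17), Prtn3 (0.01) and Ctsg (-0.17). Ms4a3 (0.45), which was listed with them but does not encode a granule protein, did not pass either, so 0 of these 5 rose or fell. Among genes of late neutrophils 2 of 9 rose, Wfdc21 by 2.55 and S100a9 by 1.11, both of which were among the calls lost with the random block. Ly6g, which defines mature mouse neutrophils, stayed near the low end of the scale with 3.36 to 3.80 in WT and 3.73 to 4.51 in IkL/L MDPs (difference 0.52, adjusted p = 0.85). Csf3r, the G-CSF receptor, was at 7.66 to 7.89 and 7.22 to 7.67 (difference -0.33, adjusted p = 0.90). The mean signal over the whole list was 7.40 to 7.58 in the 4 WT arrays and 8.55 to 9.01 in the 4 IkL/L arrays. From RNA of a sorted population, more cells of one type and more RNA per cell cannot be told apart.

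Of the C-type lectin receptors, 3 of 24 measured rose and 0 fell (median 0.43). Mrc1, the macrophage mannose receptor, was at 4.30 and 4.31 in WT MDPs with DMSO, 4.41 and 5.03 with GSI, and at 7.15 and 8.22 in IkL/L MDPs with DMSO and 7.90 and 8.01 with GSI. The groups were well separated, and the difference was 3.31 (SE 0.25, 9.9-fold, limma adjusted p = 3.4e-04). Clec4n (dectin-2, a receptor for fungal mannans) rose by 2.85 (SE 0.31, adjusted p = 0.0022) and Cd209a, a homolog of DC-SIGN found on monocyte-derived DCs and a subset of conventional DCs (cDCs), by 2.25 (SE 0.28, adjusted p = 0.0059). Related receptors did not pass, such as Mgl2 (1.73, adjusted p = 0.19), Cd209d (1.12, adjusted p = 0.082) and Clec4a1 (1.07, adjusted p = 0.32). Clec9a, the receptor for dead cells on cDC1s, had a difference of 0.38 (adjusted p = 0.85).

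Among monocyte and macrophage genes, Mrc1 and S100a4 rose of 26 measured, and 0 fell (median 0.35). S100a4 rose by 0.40 (SE 0.07, adjusted p = 0.034), a call lost with the random block (adjusted p = 0.066) and without 12 of the 16 arrays left out in turn. Ccr2, the receptor by which monocytes leave the marrow, differed by 0.16, Lyz2 by 0.06 and Fcgr1 by -0.05. The complement genes C1qb (1.34) and C1qc (1.27) and the lysosomal gene Gpnmb (1.78) had higher means with arrays that did not overlap, but their spread was large and they did not pass (adjusted p = 0.52, 0.58 and 0.43).

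**Figure D2:**
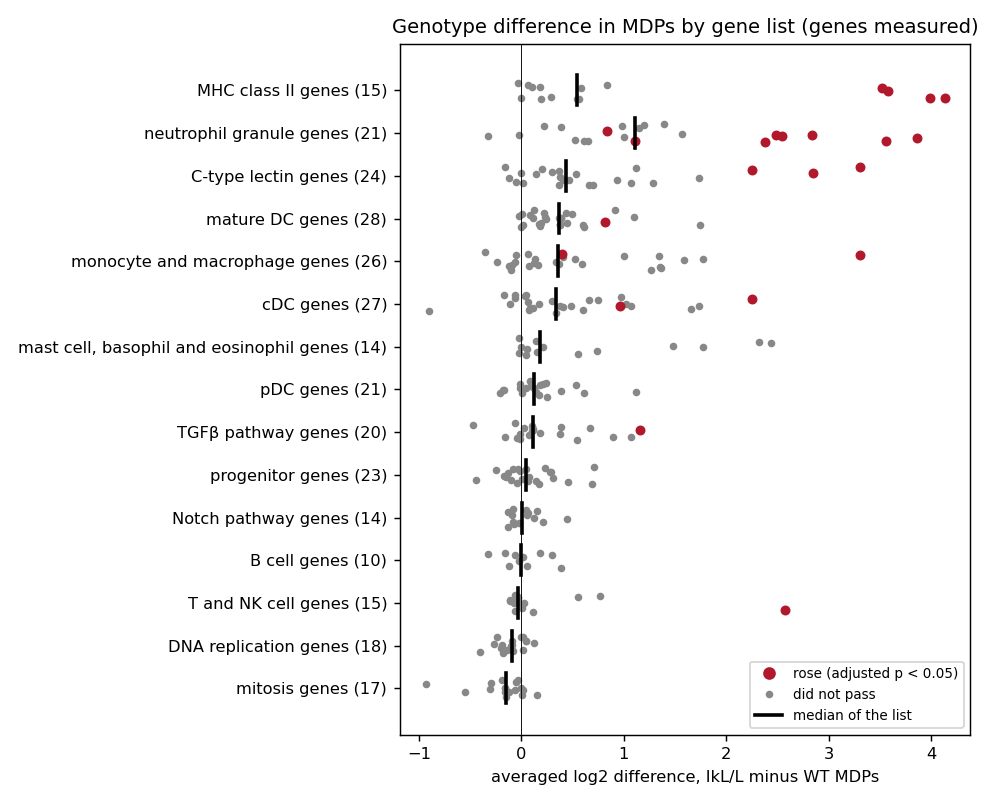
Averaged log2 difference (IkL/L minus WT MDPs) of each measured member of 15 gene lists, with members that rose in red, the others in gray and the median of each list as a bar. The median is highest for neutrophil granule genes (1.11) and MHC class II genes (0.55), and no member of any list shown fell.

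Most genes of differentiated DCs had higher means in IkL/L MDPs, but few were called. Of 27 cDC genes measured, Cd209a and Naaa rose and 0 fell (median 0.33), with 11 higher and 1 lower at an unadjusted p below 0.05 and 8 with all IkL/L arrays higher, against 0.537% of all genes called and 3.77% with all IkL/L arrays higher. Naaa, a lipid amidase rich in cDC1s, rose by 0.97 (SE 0.15, adjusted p = 0.022), whereas Xcr1 (-0.06), Batf3 (0.06), Zbtb46 (0.09) and Itgax (0.97, adjusted p = 0.31) did not pass. Of 28 genes of mature DCs, Marcksl1 alone rose on average over treatments (0.81, SE 0.12, limma adjusted p = 0.018). Of the 28, 26 had a higher mean (median 0.37) and 8 had all IkL/L arrays higher. At an unadjusted p below 0.05, 10 were higher and 0 lower. Naaa and Marcksl1 each lost the call when some single arrays were left out. Ccr7, which guides mature DCs to lymph nodes, was at 5.20, 5.37, 5.43 and 5.14 in WT MDPs and at 5.48, 6.23, 5.52 and 5.90 in IkL/L MDPs (difference 0.50, adjusted p = 0.79), and Fscn1, the actin bundler of mature DCs, differed by 0.23 (adjusted p = 0.85). Of 21 genes of plasmacytoid DCs (pDCs) 0 were called. Siglech, a pDC surface lectin, differed by 0.39 (adjusted p = 0.67).

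Progenitor and lymphoid genes did not differ past the threshold either. Of 23 progenitor genes measured 0 were called (median 0.05), including Cd34 (-0.03), Irf8 (-0.01), Spi1 (0.14) and Myb (-0.44). Of 9 genes of lymphoid priming 0 were called, with Dntt at 0.21. Among cell cycle genes 0 were called, with medians of -0.15 for 17 mitosis genes and -0.09 for 18 DNA replication genes, the latter running from -0.27 to 0.08 when single arrays were left out. Mki67, the proliferation marker, ranged from 8.18 to 9.42 in WT and from 6.75 to 8.91 in IkL/L MDPs (difference -0.93, adjusted p = 0.65).

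Markers of other cells that a sort could carry along were measured beside these results. Of 15 T and NK cell genes only Klrd1, which encodes the lectin CD94, rose. It was at 4.86, 4.63, 4.29 and 4.09 in WT MDPs and at 6.90, 8.02, 5.99 and 7.23 in IkL/L MDPs, a difference of 2.57 (SE 0.44, adjusted p = 0.030). This call was lost with the random block (limma adjusted p = 0.055). In CDPs Klrd1 was higher, at 8.09 to 9.96 in WT and 10.04 to 11.05 in IkL/L arrays. Its signal in IkL/L MDPs thus lay between that of WT MDPs and that of WT CDPs. The defining genes Cd3e, Ncr1 and Klrb1c were near the low end of the scale in both genotypes (4.17 to 4.49, 3.34 to 3.48 and 3.22 to 3.52 over the 8 arrays). Of 14 genes of mast cells, basophils and eosinophils 0 were called, but 11 had a higher mean, and the mean over the list was 4.43 to 5.17 in WT and 4.95 to 6.07 in IkL/L MDPs. The granule protease Mcpt8 differed by 2.44 (SE 0.49, adjusted p = 0.069) and the eosinophil granule gene Prg2 by 2.32 (SE 0.58, adjusted p = 0.16), with arrays that did not overlap in either. Of the B cell list 0 of 10 were called, and of the erythroid and megakaryocyte list 0 of 13. The part of such cells in the results was not tested.

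Signaling pathways were examined next. Of 20 genes of the TGFβ pathway only Eng rose. Eng encodes Endoglin (CD105), an auxiliary receptor for TGFβ, and was at 6.55 and 6.78 in WT MDPs with DMSO, 6.16 and 6.19 with GSI, and at 7.70 and 7.63 in IkL/L MDPs with DMSO and 7.79 and 7.21 with GSI. The groups did not overlap, and the difference was 1.16 (SE 0.19, 2.23-fold, limma adjusted p = 0.024). The other receptors differed by 0.11 (Tgfbr1), 0.18 (Tgfbr2) and -0.47 (Tgfbr3), the ligand Tgfb1 by 0.12, and the mediators Smad2, Smad3 and Smad4 by 0.07, 0.11 and -0.04. Of the TGFβ targets named in the study, Irf1 had a difference of 0.54 (adjusted p = 0.057), Nfkbie 0.67 (0.17), Axl 0.90 (0.39), Irf4 1.07 (0.48), Relb 0.37 (0.49), Nfkb2 0.38 (0.59) and Rel -0.02 (0.99), the values in parentheses being adjusted p-values. Another probe set of Irf1 had a difference of 0.22 and was not called either. Of 14 Notch pathway genes 0 were called, among them the targets Hes1 (-0.02), Ptcra (0.04), Nrarp (0.13) and Uaca (0.45, adjusted p = 0.12). In the NF-kB pathway (13 genes), the interferon response (15), the Toll-like receptors (12) and the stress response (16), 0 were called.

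The few falls were smaller, 0 genes fell with the random block, and each of the 10 named here lost its call when some single arrays were left out. Lilra6, a receptor of the paired immunoglobulin-like family on myeloid cells, was at 8.63 and 8.29 in WT MDPs with DMSO, 7.96 and 7.88 with GSI, and between 6.93 and 7.12 in the 4 IkL/L arrays. The difference was -1.18 (SE 0.21, adjusted p = 0.036). Bmx, a Tec family tyrosine kinase, was at 5.04, 5.39, 4.84 and 5.57 in WT MDPs and at 4.22, 3.87, 4.12 and 4.22 in IkL/L MDPs, a difference of -1.10 (SE 0.19, adjusted p = 0.030). The other falls whose arrays did not overlap were 1700012B09Rik (-0.83), Sntb1 (-0.79), Ythdc2 (-0.70), Lrrc8b (-0.66), Maob (-0.35), Stox2 (-0.34), Pex11g (-0.30) and Gm11149 (-0.28). Some of these signals lay below the array medians in both genotypes. The WT and IkL/L MDP means were 3.96 and 3.61 for Maob, 3.61 and 3.27 for Stox2, and 4.06 and 3.78 for Gm11149. Stox2 had another probe set with a difference of -0.06, which was not called.

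Whether the genotype difference depended on the treatment was asked next, since the main comparison averages over it. With DMSO alone 21 genes rose (0.105%) and 0 fell (510 higher and 369 lower at an unadjusted p below 0.05), and with GSI alone 22 rose (0.11%) and 1 fell (0.00502%; 729 higher and 629 lower at an unadjusted p below 0.05), each from 2 arrays against 2. All 21 genes that rose with DMSO had a higher mean with GSI too, 15 of them also rose with GSI (71.4% of the 21 and 68.2% of the 22), and their median difference with GSI was 1.85. These contrasts share no array, but whether their cultures share mice is not stated. Same-numbered DMSO and GSI arrays of WT MDPs deviated together (r = 0.476 across genes) and were alike in their Y-linked transcripts, so the contrasts may not be independent. Across the 19938 genes, which are not independent replicates, the differences correlated with r = 0.694. The difference between the genotype effects with GSI and with DMSO was called by limma for 0 genes (122 higher and 203 lower at an unadjusted p below 0.05). H2-Aa differed by 3.89 with DMSO and 4.37 with GSI, Camp by 3.49 and 4.23, and Eng by 0.99 and 1.32. Among the smallest p-values was that of Ccl22, a chemokine of mature DCs, which was at 4.20 and 4.35 in WT and 6.07 and 6.52 in IkL/L MDPs with DMSO and at 4.91 and 4.53 in WT and 4.70 and 5.12 in IkL/L MDPs with GSI. Its arrays were apart with DMSO, where it rose by 2.02 (SE 0.30, limma adjusted p = 0.043), and overlapped with GSI, where the difference was 0.18. On average over treatments its difference of 1.10 did not pass (limma adjusted p = 0.055), and neither did the difference of its effects.

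**Figure D3:**
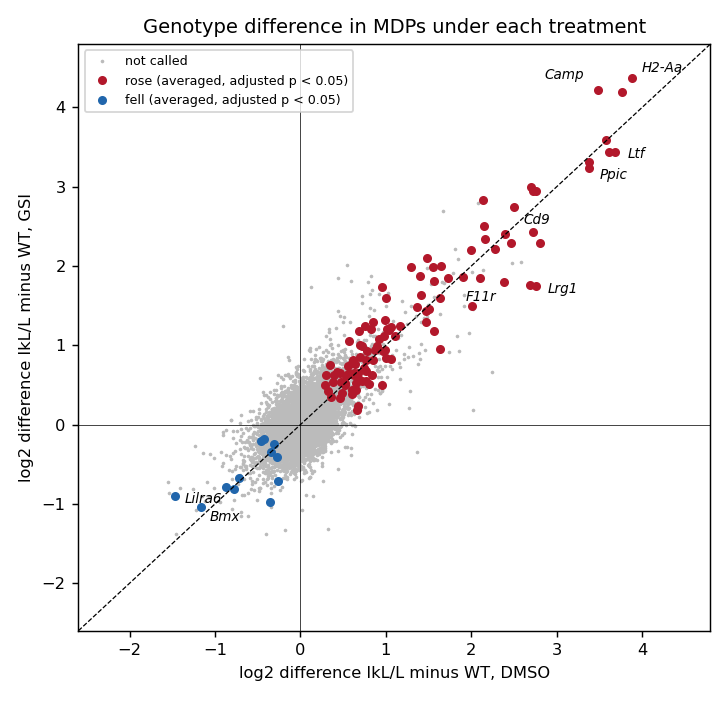
Log2 difference (IkL/L minus WT MDPs) of each gene with DMSO (x axis) and with GSI (y axis), with the 107 genes that rose on average in red, the 12 that fell in blue and the dashed line at equal values. H2-Aa lies at 3.89 and 4.37 and Camp at 3.49 and 4.23, and the risen genes were above 0 under both treatments.

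The genotype difference was then set against that in CDPs. On average over treatments 641 genes rose (3.21%) and 382 fell (1.92%) in IkL/L CDPs. Of the 107 genes that rose in MDPs, 83 also rose in CDPs (77.6% of the 107 and 12.9% of the 641), and all 107 had a higher mean in IkL/L than in WT CDPs. Of the 12 that fell in MDPs, 4 also fell in CDPs. The genotype effect differed between CDPs and MDPs for 112 genes, with 80 higher in CDPs (0.401%) and 32 lower (0.16%). Of the class II genes 4 were among the latter. H2-Aa was already at 11.54 and 11.63 in WT CDPs with DMSO and at 11.26 and 12.08 with GSI, and at 12.36 to 12.54 in IkL/L CDPs. Its signal in IkL/L MDPs (10.45 to 11.14) thus lay between that of WT MDPs and that of WT CDPs. The effect in CDPs was smaller than in MDPs by 3.32 for H2-Aa (SE 0.46, adjusted p = 0.0097), and the same holds for H2-Ab1 (difference of the effects -3.22, SE 0.37, adjusted p = 0.0032), Cd74 (-2.55, adjusted p = 0.029) and H2-Eb1 (-2.26, adjusted p = 0.048). The calls of H2-Eb1 and Cd74 in this comparison were lost without 13 and 12 of the 16 arrays left out in turn, whereas those of H2-Aa and H2-Ab1 were kept without each of them.

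Genes of mature DCs showed the opposite order. Fscn1 was at 4.49 to 4.82 in WT and 4.63 to 5.12 in IkL/L MDPs, but at 4.76 to 5.80 in WT and 9.11 to 9.88 in IkL/L CDPs. The effect in CDPs exceeded that in MDPs by 4.05 (SE 0.32, adjusted p = 4.0e-04). Ccr7 followed with 3.77 (adjusted p = 0.011) and Serpinb6b, an intracellular protease inhibitor, with 3.81 (adjusted p = 7.7e-04), and 14 of the 28 genes of the list had a higher effect in CDPs. Of the neutrophil granule list 0 of 21 differed in either direction. Camp rose by 3.86 in MDPs and 3.59 in CDPs, and Ltf by 3.56 and 4.17. Mrc1, with 3.31 in MDPs and 1.84 in CDPs, and Eng, with 1.16 and 1.64, had differences between the effects that did not pass (limma adjusted p = 0.16 and 0.91). The CDP value of Mrc1 averages unlike treatments. With DMSO it was at 4.60 and 4.91 in WT and 7.15 and 7.64 in IkL/L CDPs. With GSI it was at 8.13 and 7.55 in WT and 8.59 and 9.17 in IkL/L CDPs.

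**Figure D4:**
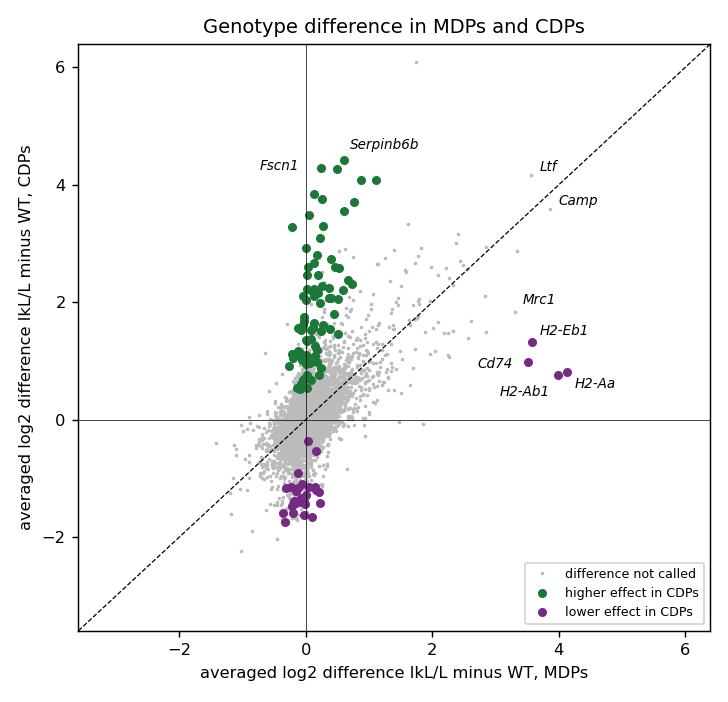
Averaged log2 difference (IkL/L minus WT) of each gene in MDPs (x axis) and in CDPs (y axis), with the 80 genes of a higher effect in CDPs in green, the 32 of a lower effect in purple and the dashed line at equal values. Class II genes lie to the lower right (H2-Aa at 4.13 and 0.81), Fscn1 to the upper left (0.23 and 4.28), and Camp (3.86 and 3.59) near the line.

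All tests were two-sided limma tests over the 19938 genes. The number of risen genes ranged from 35 to 226 when single arrays were left out (35 without replicate 1 of IkL/L MDPs with GSI, 226 without replicate 2 of WT MDPs with GSI, and 47 to 65 without each of the other 6 MDP arrays), 31 of the 107 were called throughout, and it was 55 with the genotype, stage and replicate number as a random block and 5 when the DMSO and GSI arrays of a number were averaged. Of the neutrophil granule genes that rose, Camp, Ltf and Fcnb were called without each array in turn, whereas Eng and Klrd1 were not.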

How the data were processed

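The authors summarized Affymetrix Mouse Gene ST arrays by RMA (Affymetrix Expression Console 1.4.1, per the submitters' processing notes) and deposited log2 values, which include background correction and normalization between arrays. The build is not named in any source used here. The table holds 28188 probe sets, of which 21789 carry 1 gene symbol, 1621 several and 4778 none in the platform annotation. Each gene was represented by its brightest probe set (highest mean signal of the 16 arrays), which gave 19938 genes. The 8 group means of all 16 arrays were fitted with limma 3.58.1 (statmod 1.5.0, R 4.3.3; 8 residual and 2.35 prior degrees of freedom), with Benjamini-Hochberg adjusted p-values and a threshold of 0.05. In simulated data for the averaged comparison, 87% of true 1-unit and 100% of true 2-unit log2 changes were recovered, with 12 false among 199 calls. The simulated noise was independent between arrays, whereas the random block estimated a correlation of 0.292 in the data. These rates therefore do not cover arrays that deviate together. Precision is limited by the number of arrays, and detection above background was not analysed here.

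The genes named are up to 15 with the largest rise and 15 with the largest fall whose arrays did not overlap, the 5 largest each way of each interaction (or the 3 with the smallest p where none passed), up to 4 called or otherwise 2 members of each list, the class II list, the Ikaros family, the sorting markers and genes the study names. Further list members are given as examples chosen after their values were seen. The genes, the 24 lists and the tests were chosen with earlier results of these data known. Alternatives covered the arrays fitted, blocks for the replicate number, a filter on signal, the probe sets used, normalization, the variance model, array weights, a minimum fold of 1.5 and leaving out each array.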

Additional observations from a re-analysis of the deposited data

Results flagged for a closer look

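In 4 of 50 sets of 4 arrays, 1 array stood far from the other 3 by Dixon's test. The sets were those of the genes named for the largest rises and falls in MDPs, each genotype apart. Chance gives about 1 in 20 sets for 4 like values. These sets mix DMSO and GSI arrays of genes picked for arrays that did not overlap, so that rate may not hold. H2-Ab1 was at 5.548 in replicate 1 of WT MDPs with GSI and at 6.746 to 6.9 in the other WT MDP arrays. Mrc1 was at 5.03 in replicate 2 of WT MDPs with GSI, against 4.3 to 4.414. Ngp was at 11.49 in replicate 2 of IkL/L MDPs with GSI, against 11.92 to 11.96, and Sntb1 was at 5.976 in replicate 1 of IkL/L MDPs with DMSO, against 5.541 to 5.608.

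The genotype effect differed between CDPs and MDPs by the limma test of the difference itself for 80 genes with the higher and 32 with the lower effect in CDPs. The largest differences, CDP minus MDP on the log2 scale, were 4.05 for Fscn1, 3.81 for Serpinb6b, 3.77 for Ccr7, 3.72 for Ramp3 and 3.5 for Mmp25 on the higher side, and -3.32 for H2-Aa, -3.22 for H2-Ab1, -2.55 for Cd74, -2.26 for H2-Eb1 and -1.76 for Depdc1a on the lower side. Depdc1a, a mitotic gene, differed between genotypes by 0.10 in MDPs and by -1.66 in CDPs.

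Among the probe sets without a single gene symbol, which the gene table leaves out, 11 were higher and 1 was lower in IkL/L MDPs in a fit over all 28188 probe sets. One of the 11, with a log2 difference of 1.29, is annotated to Bcl2a1a, Bcl2a1b, Bcl2a1c and Bcl2a1d together, near-identical genes for an inhibitor of apoptosis that this probe set cannot separate. The others carry no symbol.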

How the results depend on the processing

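No named gene called in the averaged comparison or between CDPs and MDPs reversed its direction under any alternative. The directions of the other calls were not compared. Of the 96 named genes, 13 that were not called took both signs (Rfx5, Hes1, Rel and H2-Ob among them), as did the medians of 9 of the 24 lists when single arrays were left out. The check did not settle whether replicate numbers pair the arrays. Deviations of same-numbered arrays correlated from -0.254 to 0.658 over 28 pairs of groups, with 16 pairs over 0.1. Over the 6 pairs of MDP groups they correlated from -0.112 to 0.476. Same-numbered DMSO and GSI arrays deviated together in WT MDPs (0.476), WT CDPs (0.585) and IkL/L CDPs (0.658), but not in IkL/L MDPs (-0.0204). These arrays may therefore not be independent, and p-values from the fit without a block may be too small. The fits with a replicate block show how far the calls depend on it. In replicate 2 of IkL/L MDPs, Eif2s3y was at 7.04 with DMSO and at 3.33 with GSI. The random block and the averaged fit nonetheless treat these arrays as a unit, so the block may not match the mice. With the replicate number as a fixed term, the averaged comparison gave 163 risen genes in place of 107, the comparison with DMSO 34 and that with GSI 35, and 63 genes had a lower effect in CDPs. With genotype, stage and number as a random block (correlation 0.292), 55 rose, all among the 107, 0 fell and 13 had a lower effect in CDPs. With DMSO and GSI arrays of a number averaged, 5 rose (Cd9, F11r, H2-Ab1, Mrc1 and Serpinh1), 0 fell, and 0 and 0 differed between CDPs and MDPs. The averaged comparison gave 5 falls above the median signal and 19 falls after quantile normalization in place of 12. Against a minimum fold of 1.5 it gave 23 rises and 0 falls, with 10 rises with DMSO, 11 rises and 0 falls with GSI, and 32 higher and 2 lower effects in CDPs. The MDP arrays alone gave 2 falls with DMSO, and 35 rises and 0 falls with GSI. Quantile normalization gave 2 falls with DMSO. A trended and robust variance gave 32 rises and 3 falls with DMSO and 38 rises with GSI. The signal filter gave 34 rises with GSI, and array weights 0 falls with GSI. Of alternatives chosen after seeing the data, a term for the Y-linked transcripts gave 179 rises and 35 falls on average, 1 fall with DMSO and 2 with GSI, and all probe sets as features gave 2 falls with GSI.

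Leaving out single arrays gave 35 to 226 rises and 0 to 58 falls on average, 0 to 25 rises and 0 to 1 falls with DMSO, 3 to 158 rises and 0 to 63 falls with GSI, 0 to 1 genes with a lower genotype effect with GSI than with DMSO, and 55 to 100 higher and 10 to 68 lower effects in CDPs. The extremes of the averaged and GSI comparisons came without replicate 1 of IkL/L MDPs with GSI and without replicate 2 of WT MDPs with GSI. With DMSO, 0 genes rose without either WT array and 7 or 2 without replicate 1 or 2 of IkL/L MDPs with DMSO, and with GSI, 5 rose without replicate 1 of WT or replicate 2 of IkL/L MDPs with GSI. Where 1 array remained in a group it was assumed to vary like the other groups. Of the 30 named genes called in the averaged comparison, 13 kept the call without each array in turn and 3 under every alternative. The class II list kept its 4 risen genes without each array and under the fixed and the random block, and the neutrophil granule list kept 3 of its 8 without each array and 4 with the random block. Array normalization moved the median of all genes by 0.0024 or less.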

Other observations

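Other genes rose in IkL/L MDPs that belong to none of the lists, and most of those below were named after their values were seen. F11r, a junctional adhesion molecule of epithelia, endothelia and leukocytes, had the smallest adjusted p of the comparison (1.3e-04), with a log2 difference of 1.98. The tetraspanin Cd9 rose by 2.62, the cyclophilin Ppic by 3.34 and the actin crosslinker Actn1 by 2.86. Other rises among surface proteins were those of Anpep (aminopeptidase N, 2.33), Slamf7 (2.25), Cdh5 (1.69), Cldn1 (1.62) and Epha4 (1.12). Alox5, the lipoxygenase that starts leukotriene synthesis, rose by 1.82, and the ion channel genes Tmem176a and Tmem176b, known from DCs, by 1.77 and 1.64. Lrg1 (2.26) and Orm1 (2.22) encode plasma proteins that granulocytes also store.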
